A study of Mus musculus with 4 samples.

Results

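Interferon-stimulated genes were followed here as 31 named transcripts, read by gene symbol from a table of 24328 symbols, and all 31 were found in it. They were measured in polyadenylated RNA of mouse muscle stem cells, the Pax7-expressing satellite cells that lie between a myofibre and its basement membrane and rebuild muscle after injury. Every animal carried one Pax7CreERT2 allele, which gives a Cre recombinase that tamoxifen activates in Pax7-expressing cells, and was perfused with paraformaldehyde (PFA) before the muscle was digested and the cells were sorted. The YFP group of 2 libraries (Pax7CreERT2/+; ROSA26YFP/+) held the fluorescent reporter YFP at ROSA26 and came from 7-month-old mice. The DEK group of 2 libraries (Pax7CreERT2/+; H11DEK-EGFP/+) held a DEK-EGFP transgene at H11 and came from 4.5-month-old mice. Age, reporter and locus therefore cannot be told apart from the transgene. The sources used here do not give tamoxifen doses, sex, the sort gate or the number of mice behind a library, so p-values measure only the spread between these libraries, which may be technical.

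Interferons are secreted proteins that warn neighbouring cells of infection. Type I interferons bind the receptor pair Ifnar1 and Ifnar2, whose kinases Jak1 and Tyk2 phosphorylate Stat2. With Irf9 it is part of a complex that binds a promoter sequence called the interferon-stimulated response element (ISRE). Interferon gamma acts through Ifngr1, Ifngr2, Jak1 and Jak2, and its signal ends at a different sequence, the gamma-activated site (GAS). The genes switched on encode RNA sensors, RNA-binding proteins, GTPases and membrane proteins that hinder viruses, and part of this programme is also kept at a low level without infection. Some stem cell types are known for high resting levels of a few of these genes, among them the Ifitm family.

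Promoters were read first, because the elements that define the pathway can be seen in them. RefSeq promoter windows of build GRCm38.p6, running from 250 bases before the annotated start to 50 bases after it, matched 24 of the 31 members. Dhx58, Usp18, Mx1, Mx2, Parp9, Parp14 and Ifi27 were not matched. The ISRE core was searched on both strands as GAAA, any 2 bases and GAAA again, and the GAS core as TTCNNNGAA, which reads the same on both strands. The ISRE core was present for 14 of 24 matched members (58.3%), against 3.99% of all 27025 genes with a window. The GAS core was present for 7 of 24 members (29.2%), against 9.55% of all genes. A match is a description of these letters only. The windows printed here belong to the 6 members with the smallest p-values between the groups, to Irf1, which varied most, and to Ifit1 and Ifit3, whose values overlapped. Capitals mark the core as it stands on the gene's strand, so TTTC in capitals is the ISRE read from its other strand.
Gbp2, ISRE, plus strand of chr3:142620589-142620628: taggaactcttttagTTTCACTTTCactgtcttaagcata
Isg15, ISRE, minus strand of chr4:156200866-156200905: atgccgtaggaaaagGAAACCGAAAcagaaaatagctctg
Rsad2, ISRE, minus strand of chr12:26456548-26456587: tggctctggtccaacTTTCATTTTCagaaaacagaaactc
Ifih1, ISRE just after the annotated start, minus strand of chr2:62646209-62646228: gaatcGAAACAGAAAccgat
Ifitm2, ISRE, minus strand of chr7:140955983-140956022: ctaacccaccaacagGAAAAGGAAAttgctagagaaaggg
Ifit1, ISRE, plus strand of chr19:34640789-34640828: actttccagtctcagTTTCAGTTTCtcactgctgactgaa
Ifit3, ISRE, plus strand of chr19:34583392-34583431: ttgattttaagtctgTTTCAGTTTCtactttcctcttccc
Irf1, GAS, plus strand of chr11:53769909-53769947: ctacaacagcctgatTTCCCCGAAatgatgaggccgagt
Ifit2, GAS, plus strand of chr19:34550444-34550476: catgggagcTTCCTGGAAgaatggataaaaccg

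The core began 59 bases before the annotated start in Gbp2, 72 in Isg15, 120 in Rsad2, 46 in Ifitm2, 85 in Ifit1 and 122 in Ifit3. Isg15 held 3 overlapping ISRE matches in a row, while Ifit1 and Ifit3 held 2 each. The GAS core of Irf1 began 90 bases before the start, and Irf1 held no ISRE core in its windows. Ifit2 held a GAS core 241 bases before the start and no ISRE core.

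Values in the table are read as FPKM, fragments scaled to the length of the transcript and the size of the library, so that levels may be set side by side between genes. At rest the family spanned a wide range. In the YFP libraries Ifitm2 and Ifitm3, small membrane proteins that block the entry of viruses, led with 443 and 395 FPKM and with 417 and 365 FPKM in replicates 1 and 2. By the mean of all 4 libraries Ifitm2 ranked 109 and Ifitm3 ranked 135 of the 24328 symbols. Ifi27, a mitochondrial protein, followed with 200.3 and 200.5 FPKM in YFP, and Xaf1, a partner of apoptosis inhibitors, with 57.6 and 56.3 FPKM. These 4 genes made up 81.1% to 85.1% of the summed level of the 31 members in each library. At the other end Mx1, a GTPase that blocks influenza viruses, was listed at 0 in both YFP libraries. Across the 4 libraries 12 members stayed at 10 FPKM or more, a further 12 stayed at 1 FPKM or more, and 4 were under 1 FPKM throughout (Oas1a, Mx1, Ifitm1 and Ifi44). Read depth is unknown because the table holds no counts, so no limit can be put on a value of 0.

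**Figure D1:**
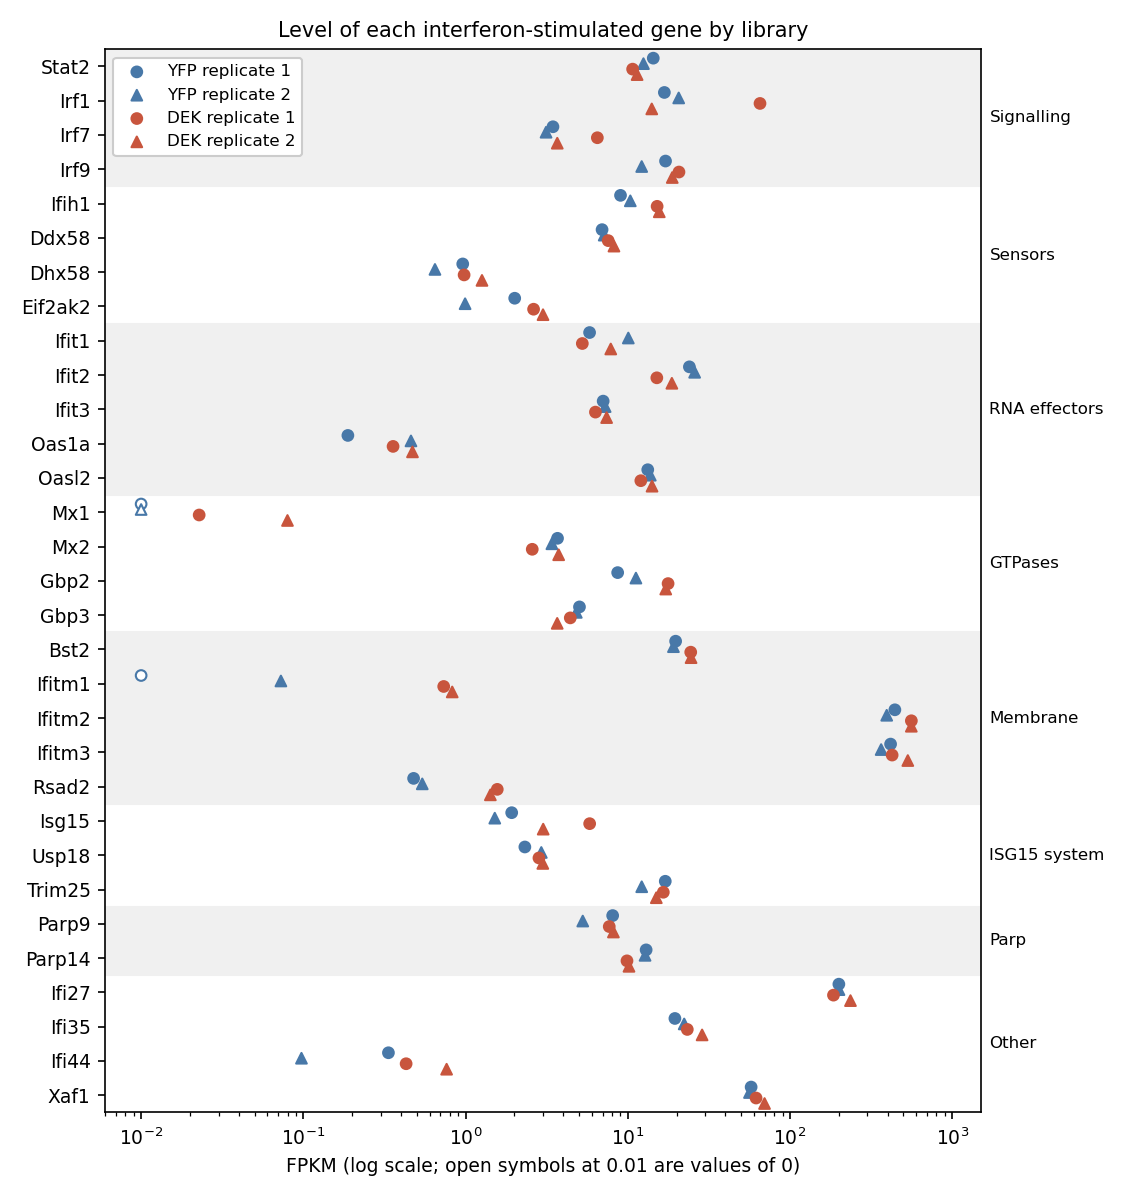
FPKM of each of the 31 members on a log axis, 1 symbol per library, with blue for YFP, red for DEK, circles for replicate 1, triangles for replicate 2 and open symbols for values of 0. Levels run from 0 for Mx1 to 560.4 FPKM for Ifitm2, and for most members the 4 libraries lie close together next to this range.

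The DEK group was compared with YFP, from which it differs in the level of Dek, a DNA-binding chromatin protein, and in age, reporter and locus. Dek had 512 and 504 FPKM in the YFP libraries, against 3196 and 1639.5 FPKM in DEK. Of the 31 members 26 had at least 1 FPKM in a minimum of 2 libraries, and these entered the test, limma on log2(FPKM + 1). The other 5, Dhx58, Oas1a, Mx1, Ifitm1 and Ifi44, were too low to test. None of the 26 passed at an adjusted p under 0.05, where 7.78% of all 12179 genes tested did. That is 0 of 26 higher in DEK, against 4.57% of all genes, and 0 of 26 lower, against 3.21%. At an unadjusted p under 0.05, 5 members were higher (19.2%, against 16.9% of all genes) and 1 was lower (3.85%, against 12.2%). Both DEK values lay above both YFP values for 13 of the 26 (50.0%, against 34.0% of all genes) and below them for 4 (15.4%, against 26.9%). The median log2 fold change was 0.22 over the 26 members and 0.05 over all genes tested. Rsad2 is in both upward counts and in the median of the members. It could not have counted the other way, because only its DEK values reached 1 FPKM. The ribosomal RNA precursor Rn45s made up 11.8% and 15.7% of the YFP totals, next to 5.15% and 5.55% of the DEK totals. With Rn45s removed, values rescaled and the low filter set again, the medians were 0.13 over 27 members and -0.07 over 12305 genes. The same removal turned the calls over all genes from 557 higher and 391 lower to 429 higher and 558 lower, and quantile normalization gave 471 higher and 567 lower. A miss of the threshold does not show that levels were alike. The 95% interval of the difference lay within 2-fold of FPKM + 1 either way for 19 of the 26 members (73.1%, against 68.0% of all genes). This scale understates changes of genes with low values. The interval did not reach a 2-fold fall for any of the 26, and the share of all genes is not given here. Rsad2 is in this count too, although its estimate could not have been a fall. It stayed under a 2-fold rise for 19, as for 81.6% of all genes, and reached it for the other 7, Irf1, Irf7, Ifih1, Eif2ak2, Gbp2, Rsad2 and Isg15. With 2 libraries on each side an exact permutation test cannot give a p under 0.333. More cells of a type and more RNA per cell cannot be told apart in bulk libraries.

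**Figure D2:**
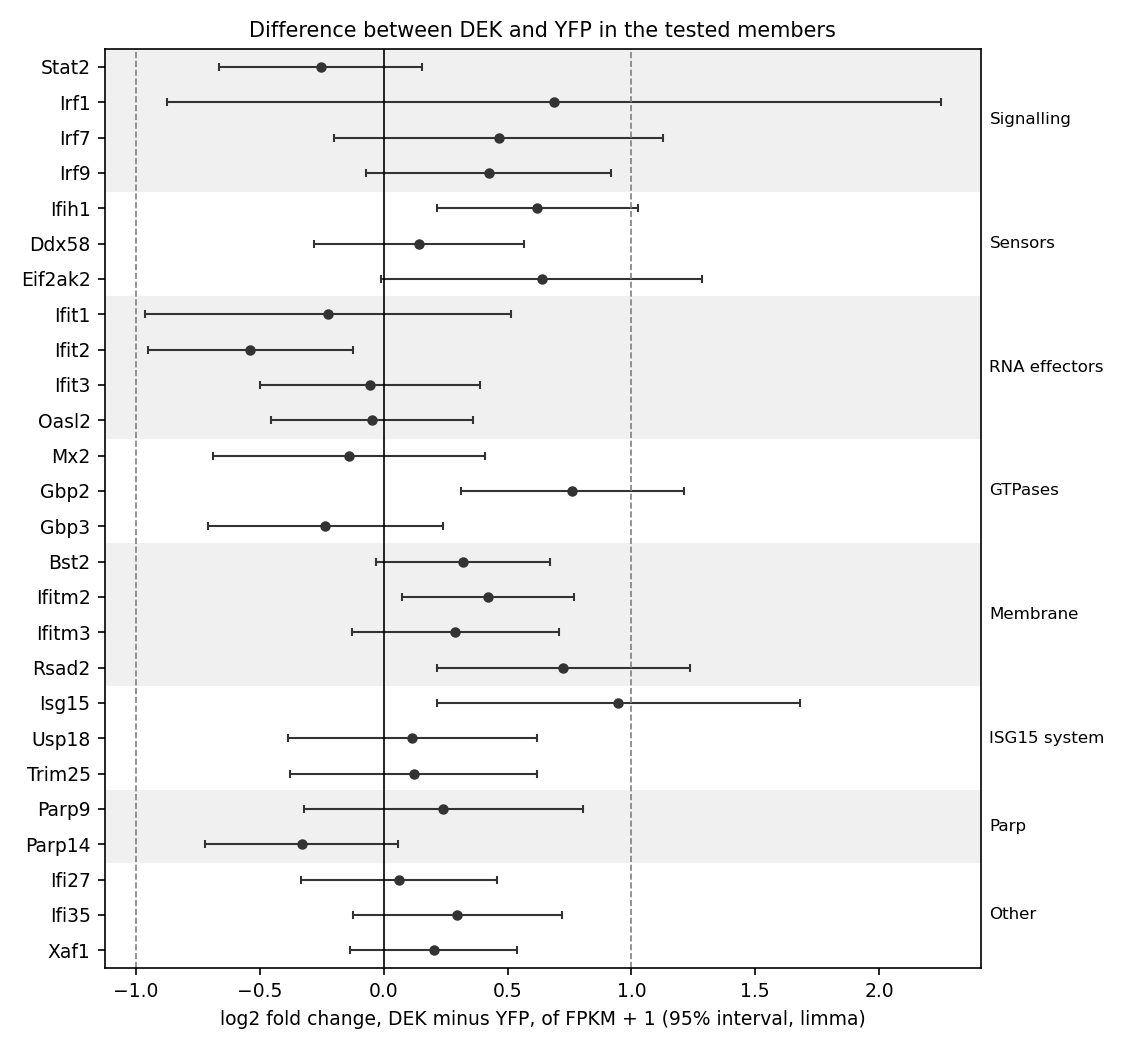
Log2 fold change of DEK minus YFP for the 26 tested members, ordered by role, with the 95% interval from limma and dashed lines at 2-fold. No member had an adjusted p under 0.05, and the interval of Irf1 is the widest.

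Upstream of these genes the type I and type II receptor chains were present and the ligands were hardly detected. The type III receptor chain Ifnlr1, a gene picked once its values were known, was listed at 0 in 3 libraries and at 0.0351 FPKM in DEK replicate 2. The table held 21 interferon genes, and 18 of them were listed at 0 in every library, among them Ifnb1 and the only type II gene, Ifng. Ifna13, Ifnk and Ifnz had values, and the 21 genes summed to 0.953 and 0.423 FPKM in YFP, and to 0.675 and 0.484 FPKM in the DEK libraries. Ifnar1 measured 33.6 and 25.02 FPKM in YFP, next to 31.7 and 30.0 FPKM in DEK. Ifnar2 had 55.5 and 57.6 FPKM in the YFP libraries, against 52.3 and 64.0 FPKM in DEK. Both overlap between groups, with log2 fold changes of 0.09 (-0.36 to 0.53) and 0.03 (-0.34 to 0.41). The interferon gamma receptor chains were lower in both DEK libraries, as 26.9% of all genes tested were, without a call. Ifngr1 was at 124 and 133 FPKM in YFP, compared with 75.9 and 110 FPKM in DEK (log2 difference -0.49, adjusted p = 0.172). Ifngr2 measured 54.8 and 48.4 FPKM in YFP, next to 18.1 and 31.4 FPKM in DEK (log2 difference -1.08, adjusted p = 0.0625). The kinases differed in sign without a call. Jak1, which serves both receptors, was at 31.8 and 27.9 FPKM in YFP, compared with 45.5 and 44.1 FPKM in DEK (log2 difference 0.57, adjusted p = 0.0673). Tyk2, which sits on Ifnar1, measured 7.97 and 12.7 FPKM in YFP, next to 5.19 and 5.98 FPKM in DEK (log2 difference -0.75, adjusted p = 0.116). Jak2, the partner of Jak1 in interferon gamma signalling and likewise picked once its values were known, had 7.22 and 7.49 FPKM in the YFP libraries, against 3.80 and 4.63 FPKM in DEK (log2 difference -0.68, adjusted p = 0.0810). Irf3, which starts interferon transcription, was at 25.6 and 29.3 FPKM in YFP, compared with 23.5 and 28.8 FPKM in DEK (-0.07, adjusted p = 0.805). Of the 14 receptors, kinases and factors 12 were tested and 0 were called, where 7.78% of all genes tested were.

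The signalling factors that carry the message to the nucleus differed among themselves. Stat2, a factor of type I and type III signalling, was at 14.4 and 12.5 FPKM in YFP, compared with 10.7 and 11.4 FPKM in DEK. The DEK values lay below those of YFP, with a log2 fold change of -0.26 (95% interval -0.67 to 0.15). Irf9, its DNA-binding partner, measured 17.1 and 12.2 FPKM in YFP, next to 20.7 and 18.8 FPKM in DEK. DEK lay above YFP here, with a log2 fold change of 0.42 (-0.07 to 0.92), or 0.65 without YFP replicate 1 and 0.20 without YFP replicate 2. Irf7, which amplifies interferon production, had 3.46 and 3.14 FPKM in the YFP libraries, against 6.50 and 3.68 FPKM in DEK. Only DEK replicate 1 stood well apart from YFP. Its log2 fold change of 0.46 (-0.20 to 1.13) was 0.80 without DEK replicate 2 and 0.12 without DEK replicate 1.

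Irf1, an early-induced factor that responds to interferon gamma and to several stress signals, varied most between replicates. It was at 16.8 and 20.6 FPKM in YFP, compared with 65.4 and 14.1 FPKM in DEK replicates 1 and 2. DEK replicate 1 was the highest of the 4 libraries and DEK replicate 2 the lowest, so the groups overlap. The gap between the DEK replicates was 2.14 on the log2 scale, the largest of any tested member, where the median gap was 0.16. The log2 fold change of 0.69 (-0.87 to 2.25) became 1.76 without DEK replicate 2 (adjusted p = 0.0658, or 0.00684 when the low filter was set on the 3 libraries left). It became -0.38 without DEK replicate 1 (adjusted p = 0.422). A list of 17 immediate early and dissociation response genes, Hspa1a and Hspa1b among them, was highest in DEK replicate 1, as Irf1 was. Many of them switch on within minutes of stress. Their summed level was 636 and 545 FPKM in YFP, 16214 FPKM in DEK replicate 1 and 3685 FPKM in DEK replicate 2. The list was thus above both YFP libraries in DEK replicate 2 as well, where Irf1 was lowest. In DEK 9 of the 17 were called higher, where 4.57% of all genes tested were. The part of these genes in the Irf1 values, and in those of Irf7 and Isg15, which also peak in DEK replicate 1, was not tested.

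Both tested cytoplasmic RNA sensors and the kinase Eif2ak2 had DEK values above those of YFP, as 34.0% of all genes tested did, without a call. Ifih1, which senses long double-stranded RNA, measured 9.02 and 10.4 FPKM in YFP, next to 15.2 and 15.6 FPKM in DEK. The groups were well separated next to the gap between replicates, and the log2 fold change was 0.62 (SE 0.17, adjusted p = 0.0750). Ddx58, the sensor of RNA with a 5′ triphosphate known as RIG-I, had 6.95 and 7.16 FPKM in the YFP libraries, against 7.58 and 8.22 FPKM in DEK. Its log2 fold change was 0.14 (-0.28 to 0.57). Eif2ak2, the RNA-triggered kinase PKR that halts translation, was at 2.01 and 0.994 FPKM in YFP, compared with 2.63 and 3.004 FPKM in DEK, with a log2 fold change of 0.64 (-0.01 to 1.28). The YFP replicates differed from each other by more than YFP replicate 1 differed from either DEK library. Dhx58, a relative that tunes the other sensors, was under the test's minimum, with 0.961 and 0.648 FPKM in YFP and 0.980 and 1.26 FPKM in DEK.

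RNA-binding effectors had log2 fold changes under 0 in all 4 tested genes, as did 5520 of all 12179 genes tested, without a call. Without DEK replicate 1 the log2 fold changes of Ifit1 (0.027), Ifit3 (0.044) and Oasl2 (0.058) were above 0. Ifit2, which binds viral RNA with its relatives, measured 23.99 and 25.8 FPKM in YFP, next to 15.1 and 18.7 FPKM in DEK. Both DEK values were below both YFP values. Its log2 fold change of -0.54 (SE 0.17, adjusted p = 0.104) was the lowest of the 26, and Ifit2 was the only member with an unadjusted p under 0.05 in that direction. Ifit1, which blocks translation of RNA that lacks a host cap mark, had 5.82 and 10.1 FPKM in the YFP libraries, against 5.25 and 7.86 FPKM in DEK. Ifit3, which stabilizes Ifit1, was at 7.05 and 7.26 FPKM in YFP, compared with 6.32 and 7.41 FPKM in DEK. In both the groups overlap, with log2 fold changes of -0.22 (-0.96 to 0.52) and -0.06 (-0.50 to 0.39). Ifit3 is uncertain as a single gene, since 41.1% of the 75-base stretches of its transcript also occur in Ifit3b. Oasl2, an oligoadenylate synthetase relative, measured 13.3 and 13.8 FPKM in YFP, next to 12.04 and 14.1 FPKM in DEK (log2 difference -0.05, -0.46 to 0.36). Oas1a, which makes the signal that activates the ribonuclease RNase L, stayed between 0.188 and 0.471 FPKM and shares 47.6% of its stretches with Oas1g.

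GTPase effectors differed in sign. Gbp2, a guanylate-binding protein that coats intracellular microbes and responds strongly to interferon gamma, had 8.67 and 11.2 FPKM in the YFP libraries, against 17.7 and 17.2 FPKM in DEK. Its log2 fold change of 0.76 (SE 0.18, adjusted p = 0.0615) had the smallest p of the 26, and over the alternatives its adjusted p ran from 0.0532 to 0.272. Gbp3, of the same family, was at 5.04 and 4.82 FPKM in YFP, compared with 4.42 and 3.67 FPKM in DEK (log2 difference -0.24, -0.71 to 0.24). These neighbours on chromosome 3 thus had log2 fold changes of opposite sign, and the difference between them was not tested. Mx2, which hinders vesicular stomatitis virus, measured 3.69 and 3.41 FPKM in YFP, next to 2.58 and 3.75 FPKM in DEK, and the groups overlap. Mx1 was at 0.0228 and 0.0798 FPKM in DEK, close to its 0 in YFP.

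Membrane-associated effectors had both DEK values above both YFP values in all 4 tested genes, an order seen in 34.0% of all genes tested, and 1 of the 4, Rsad2, could not have counted the other way because only its DEK values passed the low filter. Bst2, or tetherin, which holds budding virus at the cell surface, had 19.7 and 19.1 FPKM in the YFP libraries, against 24.5 and 24.6 FPKM in DEK. Replicates agreed closely, and the log2 fold change was 0.32 (-0.03 to 0.67). Ifitm2 stood at 560.4 and 560.04 FPKM in DEK, with a log2 fold change of 0.42 (SE of 0.14, adjusted p = 0.122). Ifitm3 stood at 427 and 533 FPKM in DEK, of which replicate 1 was close to YFP replicate 1, and its log2 fold change was 0.29 (-0.13 to 0.71), or 0.45 without DEK replicate 1 and 0.13 without DEK replicate 2. Of the stretches of Ifitm2, 42.0% occur in transcripts of other gene models, among them Gm45717, whose exons overlap those of Ifitm2, so its level may be split. Rsad2, or viperin, which makes a chain-terminating nucleotide, was at 0.478 and 0.541 FPKM in YFP, compared with 1.57 and 1.42 FPKM in DEK. Its log2 fold change was 0.72 (SE 0.21, adjusted p = 0.0878). Ifitm1 was under the minimum throughout, at 0 and 0.0727 FPKM in the YFP group, then 0.734 and 0.828 FPKM in the DEK libraries. It was called when no low filter was used.

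The ubiquitin-like modifier Isg15, which is joined to new proteins during an interferon response, had the largest log2 fold change of the 26 over all 4 libraries with the pseudocount of 1. With a pseudocount of 0.1 Rsad2 (1.39) exceeded Isg15 (1.25), and with 5 Irf1 (0.63), Gbp2 (0.59) and, narrowly, Ifih1 (0.475) exceeded it (0.471). It measured 1.93 and 1.51 FPKM in YFP, next to 5.82 and 3.01 FPKM in DEK. Both DEK libraries were above YFP, but they also differed from each other by more than the YFP libraries did. The log2 fold change was 0.95 (SE 0.30, adjusted p = 0.106), with 1.33 without DEK replicate 2 and 0.56 without DEK replicate 1. Usp18, the protease that removes Isg15 and blocks the receptor Ifnar2, had 2.32 and 2.93 FPKM in the YFP libraries, against 2.84 and 2.99 FPKM in DEK. Trim25, the ligase that activates RIG-I, was at 17.03 and 12.2 FPKM in YFP, compared with 16.6 and 15.002 FPKM in DEK. Both had groups that overlap and log2 fold changes of 0.12, which for Trim25 became -0.0052 with Rn45s removed.

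**Figure D3:**
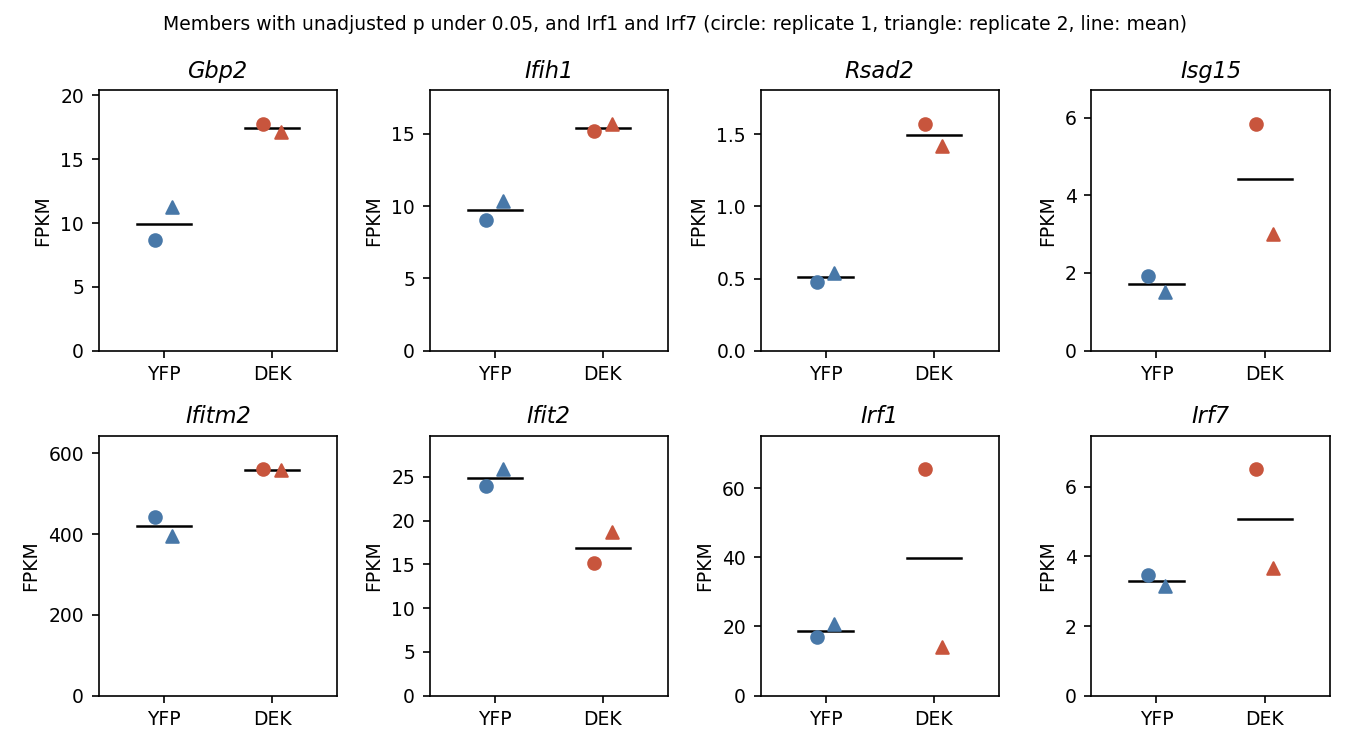
FPKM by library, on axes from 0, for the 6 members with an unadjusted p under 0.05 and for Irf1 and Irf7, with circles for replicate 1, triangles for replicate 2 and lines for the mean of 2. Ifih1, Rsad2 and Ifitm2 have close replicates, whereas those of Gbp2 are close only in DEK. Isg15, Irf1 and Irf7 are highest in DEK replicate 1.

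None of the remaining tested members had an interval that reached 2-fold of FPKM + 1. Parp9, an ADP-ribosyltransferase that works with the ligase Dtx3l, measured 8.07 and 5.28 FPKM in YFP, next to 7.69 and 8.16 FPKM in DEK. Parp14, a larger relative, had 13.0 and 12.8 FPKM in the YFP libraries, against 9.89 and 10.2 FPKM in DEK. Parp14 was lower in both DEK libraries (log2 fold change -0.33, -0.72 to 0.06), and the groups of Parp9 overlap (0.24, -0.32 to 0.81). Ifi35, a partner of other interferon-induced proteins, was at 19.5 and 22.3 FPKM in YFP, compared with 23.3 and 28.7 FPKM in DEK (log2 difference 0.30, -0.13 to 0.72). Xaf1 stood at 61.8 and 69.7 FPKM in DEK (0.20, -0.14 to 0.54), and Ifi27 at 185 and 236 FPKM in DEK, on either side of YFP (0.06, -0.33 to 0.46, and -0.071 with Rn45s removed). Ifi44 was under the minimum, at 0.335 and 0.0974 FPKM in the YFP group, then 0.430 and 0.764 FPKM in the DEK libraries.

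Members with and without an ISRE core covered overlapping ranges of log2 fold change. The 13 tested members with the core had a median log2 fold change of 0.32, from -0.26 for Stat2 to 0.95 for Isg15. The 8 tested members without it had a median of 0.25, from -0.54 for Ifit2 to 0.69 for Irf1. Gbp2 and Gbp3 both held the core, as did Isg15 and Ifit3, and they stood on different sides of 0. The 6 tested members with a GAS core had a median of 0.31, and the 15 without it had 0.20. These values are descriptive, and the differences were not tested. Rsad2 is among the 13 with the ISRE core and the 15 without the GAS core. It could not have had a value below 0, because only its DEK values passed the low filter.

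Of 145 other pathway genes, 93 were tested, of which 4 rose (4.57% of all genes did) and 1 fell (3.21% of all genes). The one that fell was Ptpn1, a phosphatase that acts on Jak2 and Tyk2. It went from 38.6 and 42.3 FPKM in YFP to 19.4 and 24.04 FPKM in DEK (log2 difference -0.87, SE 0.17, adjusted p = 0.0372), and the call was lost when any 1 of the 4 libraries was omitted with the tested genes held fixed. Of the 14 brakes on the pathway it was the only one called, although Socs1, a gene picked once its values were known, was at 3.11 and 2.40 FPKM in YFP, compared with 43.1 and 7.01 FPKM in DEK (adjusted p = 0.105). Of 10 tested sensors and adapters 0 were called, where 7.78% of all genes tested were. The 4 that rose were all among 57 further interferon-stimulated genes tested. Ly6a, or Sca-1, a surface protein known from endothelial and mesenchymal cells of muscle, went from 1.38 and 1.61 FPKM to 16.63 FPKM in both DEK libraries (log2 fold change 2.82, SE 0.18, adjusted p = 0.00336). Gbp4, another guanylate-binding protein, was listed at 0 in YFP replicates 1 and 2 and reached 2.67 and 2.02 FPKM in the DEK libraries (adjusted p = 0.0147). Ifi205, a DNA-binding relative of Aim2, was listed at 0 in YFP replicates 1 and 2 and reached 1.07 and 1.65 FPKM in the DEK libraries (adjusted p = 0.0376). Ms4a4c, a membrane protein found in leukocytes, was listed at 0 in YFP replicates 1 and 2 and reached 1.14 and 1.09 FPKM in the DEK libraries (adjusted p = 0.0396). These last 3 passed the low filter only through DEK. With a YFP library left out 1 gene of the pathway list was called higher, and without DEK replicate 1 the number was 0, or 2 with the low filter set on the 3 libraries left. The further interferon-stimulated genes had a median log2 fold change of 0.42, beside 0.22 for the members and 0.05 for all genes tested. Of the 57, 5 passed the low filter only through DEK and could not have had a value below 0, as was true of Rsad2 among the members. The further genes were listed from general knowledge, with earlier results of these data known.

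**Figure D4:**
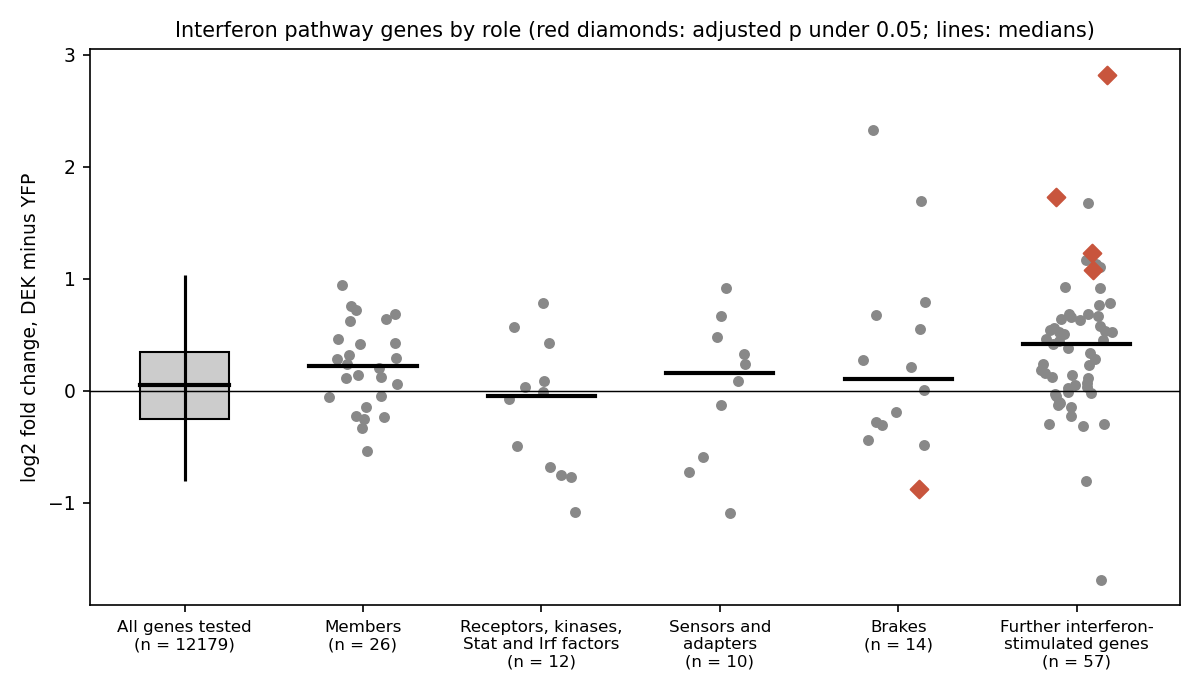
Log2 fold change of DEK minus YFP for all tested genes (box for the quartiles, line for the 5th to 95th percentile) and for each tested member or other pathway gene by role, with black lines for medians and red diamonds for an adjusted p under 0.05. The 5 called genes are Ly6a, Gbp4, Ifi205 and Ms4a4c above 0 and Ptpn1 below it, and no member is called.

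Many cell types express interferon-stimulated genes, so markers of other cells were read in the same libraries. The satellite cell markers were present in all 4, with Cxcr4 the lowest at 4.70 to 9.30 FPKM and a list sum of 2309 to 3143 FPKM. Pax7 was at 106 and 93.9 FPKM in the YFP group, then 119 and 184 FPKM in the DEK libraries. Of the 14 tested, 1 was called higher, Chrdl2 (adjusted p = 0.0336, 4.57% of all genes were), and 0 lower. Both DEK values lay above both YFP values for 7 (34.0% of all genes) and below them for 2, Myf5 and Megf10 (26.9% of all genes). A marker under 1 FPKM in both YFP libraries entered the test through DEK alone and could pass in 1 direction only, so for such genes the levels are a description and the calls are no support. Of 14 tested endothelial markers 11 were called higher (4.57% of all genes were), and all 11 entered through DEK alone. Their 15 genes summed to 79.0 and 75.7 FPKM in YFP, and to 244.4 and 201.4 FPKM in the DEK libraries, with Kdr, Flt1, Ptprb and Robo4 at 0 in both YFP libraries. Most of the YFP sums came from Tek, which was not called (adjusted p = 0.172). Tek had 55.9 and 56.7 FPKM in YFP, next to 78.8 and 66.5 FPKM in DEK. Of 10 tested macrophage and monocyte markers 7 were called higher, all 7 through DEK alone. Their 16 genes summed to 3.96 and 20.3 FPKM in YFP, and to 111 and 137 FPKM in the DEK libraries. Lyz2, which was not called (adjusted p = 0.0691), carried much of this, and the other 15 genes summed to 3.76 and 5.08 FPKM in YFP, next to 37.3 and 36.8 FPKM in DEK, with Adgre1, Tyrobp, C1qa, C1qb, C1qc and Aif1 at 0 in both YFP libraries. Of 5 tested markers of other leukocytes 1 was called higher, through DEK alone. That list of 17 genes summed to 6.56 and 62.4 FPKM in YFP, and to 105 and 228 FPKM in the DEK libraries, with S100a8 and S100a9 the most abundant. Gzma was at 0 in every library, and Siglech, a marker of the plasmacytoid dendritic cells that make interferon, was at 0 in 3 of 4. Of 9 tested markers of fibro-adipogenic progenitors 4 were called higher, 2 of them through DEK alone, and 2 fell, with sums of 1666 and 1336 FPKM in YFP and 1462 and 1657 FPKM in DEK. Of 10 tested pericyte and smooth muscle markers 2 were called higher, 1 of them through DEK alone, with sums of 739 and 759 FPKM in YFP and 616 and 907 FPKM in DEK. Of 5 tested erythroid markers 2 were called higher, both through DEK alone, and the list of 10 genes summed to 8.04 and 0.527 FPKM in YFP, and to 39.4 and 357 FPKM in the DEK libraries. The part of these cells in the values of Ly6a, Gbp4, Ifi205 and Ms4a4c, and in those of the members, was not tested. The 31 members together summed to 1339 and 1238 FPKM in YFP, and to 1521 and 1644 FPKM in the DEK libraries.

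**Figure D5:**
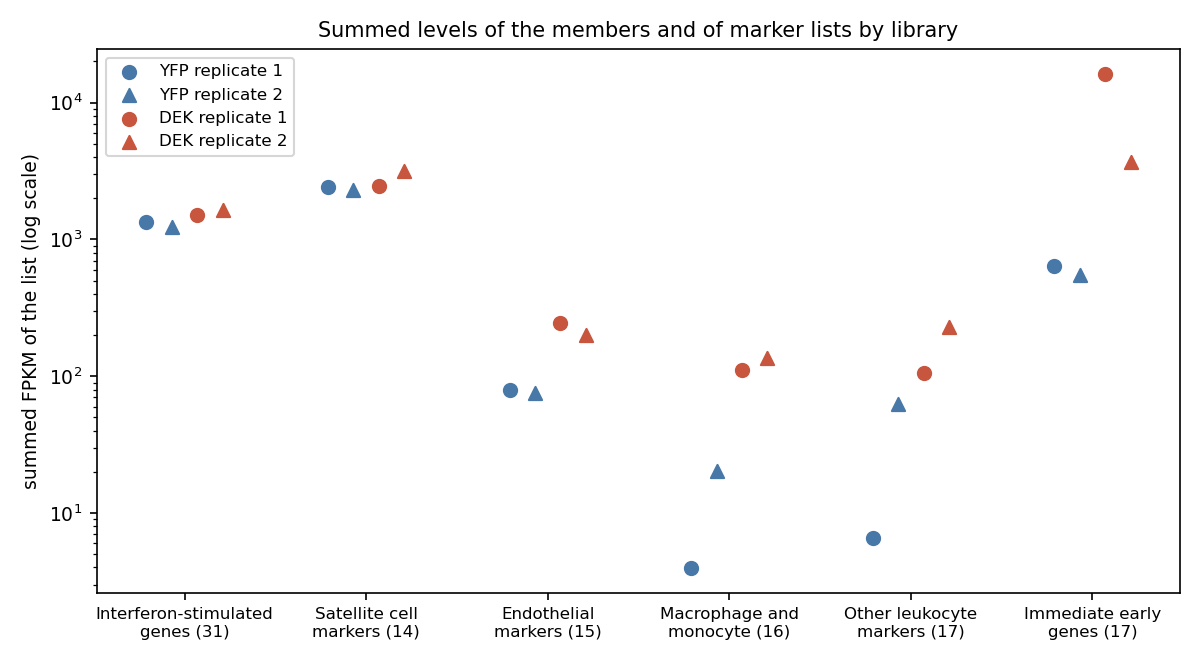
Summed FPKM of the 31 members and of 5 marker lists in each library on a log axis, with the number of genes in brackets, blue for YFP, red for DEK, circles for replicate 1 and triangles for replicate 2. The sums of the members lie within 1238 to 1644 FPKM, while macrophage markers go from 3.96 and 20.3 FPKM in YFP to over 100 FPKM in DEK. The list shown as immediate early genes also holds dissociation response genes, and its sum peaks in DEK replicate 1.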

How the data were processed

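The deposited table gives 1 value per gene symbol for each of 4 libraries. Fixed cells gave RNA through an FFPE extraction kit, and SMART-Seq made the cDNA, per the labels' protocols. The submitters' processing notes name build mm9 and the tools STAR 2.5.3a, R 3.4.1 and StringTie 1.3.3, with roles, settings, annotation and filters not given in the sources used here. The deposited values are read as FPKM, which the authors would have scaled to the length of each transcript and to the library. The unit was inferred from the tools and the values: 0% of the values above 0 are whole and the column totals run from 541184 to 545123. TPM is also possible.

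Genes with at least 1 FPKM in a minimum of 2 libraries entered a test on log2(FPKM + 1) with limma 3.58.1 in R 4.3.3, with a variance trend and no covariates. Two-sided p-values were adjusted by Benjamini and Hochberg over the tested genes, and an adjusted p under 0.05 made a call. Fold changes on this scale understate genes with low values. The script was tested on simulated data. Shared stretches were counted as exact 75-base matches, the read length, of the longest GENCODE M21 coding transcript of each member in transcripts of other genes. Exons of 11 members overlap another gene, and the sources used here do not say whether reads were assigned by strand.

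Members, lists, roles and tests were chosen with earlier results of these data known. All members are named. From the other pathway genes, 10 set receptors, kinases, factors and ligands are named whatever their values, with up to 12 called genes. One gene that this rule names is not reported here. Marker genes are named as examples.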

Additional observations from a re-analysis of the deposited data

How the results depend on the processing

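With 2 libraries a group, the counts depend on single libraries. Of 20 alternatives, 0 members were called higher in 17 and 0 lower in all 20. The exceptions were Irf1 (1 member) without DEK replicate 2 with the low filter on the 3 remaining libraries, Ifitm1 (1 member) with no low filter, and Gbp2, Ifih1 and Rsad2 (3 members) at an adjusted p under 0.1. Leaving out 1 library gave 0 to 184 called genes, against 948, and 168, 83, 302 and 780 with the low filter on the 3 remaining libraries, in order for YFP replicate 1, YFP replicate 2, DEK replicate 1 and then DEK replicate 2. These fits called 0 to 5 other pathway genes higher and 0 to 5 lower. Calls over all genes numbered 618 with the replicate block, 293 with no low filter and 2096 at an adjusted p under 0.1. The correlation of deviations between same-numbered libraries was 0.06, and the labels give only numbers, so the pairing is not established.

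Other pathway genes called higher numbered 2 with a pseudocount of 5 or quantile normalization, 1 at 5 FPKM in 2 libraries and 16 at an adjusted p under 0.1, against 4. Those called lower numbered 0 with no low filter, no trend or a 2-fold minimum, 2 at 5 FPKM or with robust estimation, 4 with TMM factors, quantile normalization or Rn45s removed, and 6 at an adjusted p under 0.1, against 1. The cause of these moves was not tested.

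Of the 26 tested members 17 kept their sign in each alternative that gave them a fold change, from 15 for Rsad2 to 18. With a library left out, the lowest or highest log2 fold change crossed 0 for Irf1 (-0.38 to 1.76), Ifit1 (-0.58 to 0.13, with 0.027 without DEK replicate 1), Ifit3 (-0.16 to 0.044), Oasl2 (-0.16 to 0.058), Mx2 (-0.35 to 0.064), Usp18 (-0.0064 to 0.24), Trim25 (-0.11 to 0.35), Parp9 (-0.024 to 0.51) and Ifi27 (-0.11 to 0.24). With Rn45s removed Trim25 had -0.0052 and Ifi27 -0.071, and with quantile normalization Ifi27 had -0.088. Single libraries also moved Stat2 (-0.16 without YFP replicate 1), Eif2ak2 (0.34 without YFP replicate 2) and, without DEK replicate 2, Ddx58 (0.09), Gbp3 (-0.13), Ifi35 (0.15) and Xaf1 (0.12) by over 1.5 times.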
